A study of Schizosaccharomyces pombe with 6 samples.

Results

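Small RNA of fission yeast, Schizosaccharomyces pombe, was compared between short and prolonged growth at 37 °C. The 2 libraries compared, of 6 in the series, came from wild-type strain spb75 after 8 h and after 7 d at 37 °C, with 1 library at each time. Beside them stand 2 libraries of the same strain grown at 30 °C, replicates 1 and 2, and the other two libraries of the series, wild-type spb80 and the dcr delta strain spb309 at 30 °C, entered the scaling between libraries and nothing else. All cultures were in rich YES medium and were harvested while growing exponentially, per the labels, and the small RNA of 18 to 28 nt was cut from a gel. The labels do not say how the culture was kept for 7 d, nor whether libraries came from separate cultures. With 1 library at each time there is no replicate error, and the comparison is given as values without a test; a model that borrows its spread from other peaks could have been fitted and was not.

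In fission yeast, Dicer cuts double-stranded RNA into short interfering RNA (siRNA), which guides Argonaute to the repeats around centromeres and at chromosome ends and keeps them packed as heterochromatin. The size-selected fraction also holds fragments of tRNA, rRNA, other structured RNA and mRNA, and a read over a coding gene need not be an siRNA. The title of the series names Dicer and Hsp104, a chaperone that pulls aggregated proteins apart. Heat induces genes for such chaperones within minutes in yeast, and cells that go on growing at the higher temperature usually bring that first response back down.

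The deposited list held 11033 peaks, with no strand, so a gene and an antisense RNA over it cannot be told apart. Reads over the peaks came to 12910992 at 8 h and 7025811 at 7 d, and to 15723318 and 5790804 in 30 °C replicates 1 and 2. The median peak held 25 reads at 8 h and 19 at 7 d. Levels are given as normalised reads, reads divided by a trimmed-mean scale of each library, and ratios as the log2 of 7 d over 8 h after adding 1. A peak or gene is called here when it lay at least 4-fold apart, a rule of size. By that rule 85 of 8274 peaks were higher at 7 d (1.03%) and 303 were lower (3.66%), together 388 (4.69%), against 137 (1.66%) between the 2 libraries at 30 °C. Of 4428 genes, 14 were higher (0.316%) and 108 lower (2.44%), together 122 (2.76%), against 56 (1.26%) between the 30 °C libraries. Among peaks with at least 50 reads over the pair compared, a minimum chosen after the values were seen, 4.61% of 5181 lay 4-fold apart between 7 d and 8 h and 1.71% of 7128 between the 30 °C libraries. The median ratio of all peaks was -0.04, and it becomes 0.58 when libraries are scaled by total reads, so every direction below is relative to the other peaks. Gaps between the 30 °C libraries are given by the trimmed-mean scale and also move with scaling. On that scale the sum over all peaks had a gap of -0.74, replicate 2 over replicate 1.

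By class, the 8 h library stood apart through its tRNA fragments. As a share of all reads over peaks, tRNA and coding sequence at 7 d lay between the 8 h library and the libraries at 30 °C, and heterochromatin was lowest at 7 d. Reads over tRNA genes made up 39.1% and 31.9% at 30 °C, 67.7% at 8 h and 58.6% at 7 d. Reads over rRNA genes made up 23.5%, 28.0%, 17.0% and 24.0% in the same order. Centromere repeats, the main source of siRNA, made up 22.7%, 16.3%, 7.49% and 5.42%. Subtelomeric peaks, those within 50 kb of an end of chromosome I or II, made up 0.223%, 0.197%, 0.0696% and 0.0384%. Coding sequence made up 6.36%, 11.2%, 3.20% and 5.32%. These shares move with the tRNA total: with tRNA and rRNA left out, coding sequence made up 17.0%, 28.0%, 20.8% and 30.5%, so 7 d was above both 30 °C libraries and 8 h between them. On the same basis centromere repeats made up 60.7%, 40.6%, 48.8% and 31.1%, with 8 h between the 30 °C libraries and 7 d below both, and subtelomeric peaks 0.595%, 0.493%, 0.453% and 0.220%. The snRNA genes, whose RNAs form the spliceosome, made up 0.118%, 0.194%, 0.0835% and 0.188%, and the snoRNA genes, whose RNAs guide rRNA modification, 0.127%, 0.149%, 0.132% and 0.161%. Wilson 95% intervals of these shares cover counting error only, since PCR copies carry no molecular identifier, and are narrow at this depth, 67.6 to 67.7% for tRNA at 8 h.

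**Figure D1:**
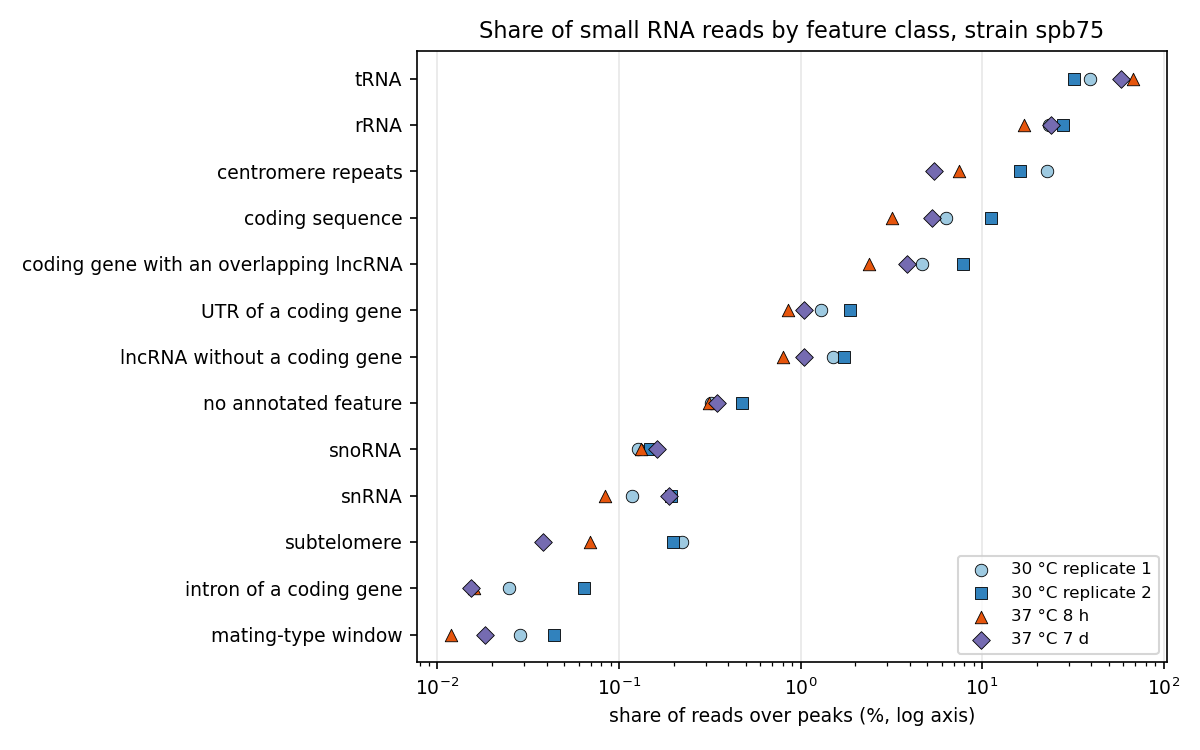
Share of the reads over peaks (%, log axis) in each feature class for the 4 libraries of strain spb75, 1 point per library. The tRNA share is highest at 8 h, at 67.7%, and the centromere repeats are at their lowest at 7 d, at 5.42%.

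The tRNA genes differed by sequence, and for some amino acids by anticodon. Of 159 tRNA peaks, 119 were below 0 and 40 above, with a median of -0.42 that becomes 0.19 by total reads. Of these peaks 9 were 4-fold lower, against 3.66% of all peaks. The genes under 151 peaks that each lie on 1 tRNA gene fell into 60 distinct sequences, 42 of them below 0 and 18 above. Of the 60, 2 were 4-fold lower. Genes of identical sequence share their reads and were summed. The sequences with the largest differences, and for valine, glutamate and alanine their partners with another anticodon, are shown because genes for the same amino acid lay far apart. They are printed without introns from RefSeq assembly ASM294v3, 5′ to 3′ on the strand of the gene, with the anticodon in capitals as found by a search for a triplet that follows a T, precedes a purine and starts at base 33 to 37.
SPATRNAVAL.01: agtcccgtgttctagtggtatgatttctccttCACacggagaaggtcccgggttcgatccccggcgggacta
SPATRNAVAL.02: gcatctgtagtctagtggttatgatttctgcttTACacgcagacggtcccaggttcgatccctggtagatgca
SPATRNAVAL.03: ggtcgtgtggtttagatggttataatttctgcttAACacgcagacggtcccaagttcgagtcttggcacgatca
SPATRNAGLU.03: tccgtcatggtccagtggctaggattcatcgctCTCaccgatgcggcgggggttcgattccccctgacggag
SPATRNAGLU.01: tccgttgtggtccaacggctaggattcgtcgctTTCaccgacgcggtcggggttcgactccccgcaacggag
SPATRNAALA.02: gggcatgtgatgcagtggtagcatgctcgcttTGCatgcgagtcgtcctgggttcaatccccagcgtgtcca
SPATRNAALA.06: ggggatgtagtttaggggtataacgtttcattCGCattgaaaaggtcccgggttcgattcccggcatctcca
SPBTRNAHIS.01: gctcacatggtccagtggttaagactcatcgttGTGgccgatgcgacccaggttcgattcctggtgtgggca

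The valine tRNA read by anticodon CAC, a single gene with a peak (SPATRNAVAL.01, I:446000-446071, plus strand), held 22266 and 4276 normalised reads at 30 °C, 92137 at 8 h and 9475 at 7 d. It was 9.72-fold lower at 7 d, with a log2 ratio of -3.28, and its 30 °C libraries differed by -2.38, replicate 2 over replicate 1. The 2 genes with anticodon TAC, SPATRNAVAL.02 among them, stood at 132629, 45095, 609598 and 157486, a log2 ratio of -1.95. The 9 genes with anticodon AAC, among them SPATRNAVAL.03, stood at 14757, 7780, 18976 and 12820, a log2 ratio of -0.57 that becomes 0.04 by total reads. The 3 valine sequences differ from each other by 15 to 22 bases, and the order CAC, TAC, AAC was also the order of their gaps between the 30 °C libraries, at -2.38, -1.56 and -0.92.

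For glutamate, the 6 genes with anticodon CTC, named for SPATRNAGLU.03, held 299861 and 93425 normalised reads at 30 °C, 1280290 at 8 h and 266052 at 7 d. Their sum was 4.81-fold lower at 7 d, a log2 ratio of -2.27. The 4 genes with anticodon TTC, named for SPATRNAGLU.01, held 397496, 170429, 1310710 and 899627, a ratio of -0.54 that becomes 0.07 by total reads. The sequences differ at 13 bases. At 8 h the glutamate sums were close to each other, and at 7 d that of CTC was the far lower one. At 30 °C the replicates differed by -1.68 for CTC and -1.22 for TTC.

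The histidine tRNA, with 4 genes of anticodon GTG named for SPBTRNAHIS.01, differed between the times. Its 30 °C libraries lay close by the trimmed-mean scale. The 4 genes held 264458 and 249479 normalised reads at 30 °C, 1570520 at 8 h and 490435 at 7 d, a log2 ratio of -1.68 beside a gap of -0.08 between the 30 °C libraries. Among alanine tRNAs, the 2 genes of anticodon TGC, named for SPATRNAALA.02, held 2778, 897, 12771 and 4110 (ratio -1.64, 30 °C gap -1.63). The gene of anticodon CGC, SPATRNAALA.06, held 6319, 4308, 18663 and 46124, which is 2.47-fold higher at 7 d and the highest ratio of the 60 sequences. It was the opposite of the TGC pair in direction, and both directions held under total reads, at 1.92 and -1.03. The 7 glycine genes of anticodon GCC, among them SPATRNAGLY.01, held 755887, 162074, 1367160 and 592816 (ratio -1.21, 30 °C gap -2.22), whereas the glycine gene of anticodon CCC, SPBTRNAGLY.09, held 28229, 18206, 130514 and 154646 (ratio 0.24). Both lysine sequences of anticodon CTT were higher at 7 d, by 0.70 for the 6 genes of SPATRNALYS.01 and 0.61 for SPBTRNALYS.07. The same anticodon did not always mean the same ratio. The proline gene SPBTRNAPRO.08 and the proline gene SPATRNAPRO.01, both of anticodon TGG, had ratios of -0.96 and 1.03. The glutamine sequences of anticodon TTG had -1.01 and -0.40, and the cysteine sequences of anticodon GCA -1.40 and -0.66.

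The 30 °C libraries differed from each other by sequence as well. Across the 60 sequences, the ratio of 7 d over 8 h and the gap between the 30 °C replicates had a Pearson r of 0.42 and a Spearman rho of 0.30, given as a description: the pairs of libraries are separate, and within each pair all sequences come from the same library preparations. The part of library preparation in these ratios was not tested.

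**Figure D2:**
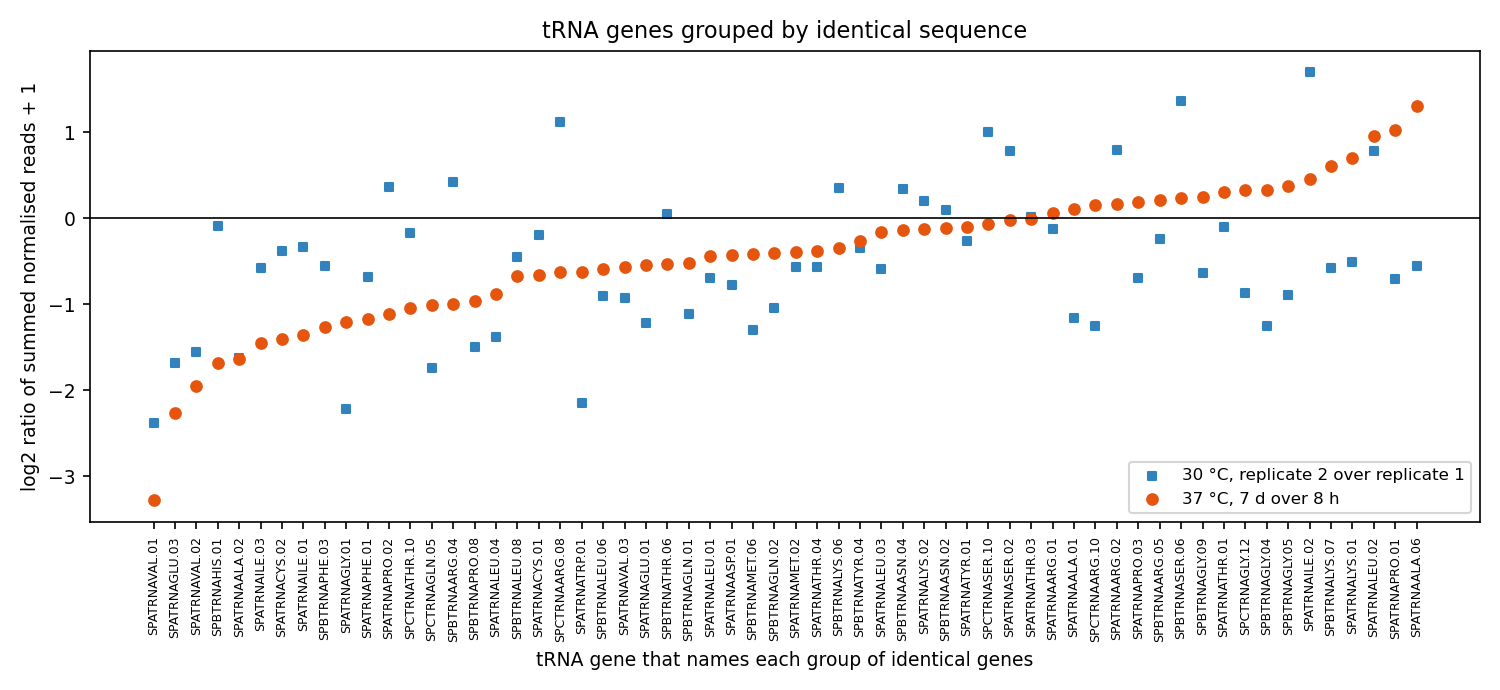
Log2 ratio of summed normalised reads + 1 for the 60 groups of tRNA genes with identical sequence, ordered by 7 d over 8 h (circles), with replicate 2 over replicate 1 at 30 °C (squares). The ratio runs from -3.28 for SPATRNAVAL.01 to 1.31 for SPATRNAALA.06, and the squares from -2.38 to 1.70.

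Among other structured RNAs, the rRNA types went in different directions. The 5S genes, dispersed over the chromosomes in this yeast, summed to 779677 and 226155 normalised reads at 30 °C, 804319 at 8 h and 966756 at 7 d, and 34 of the 36 5S peaks past the low-level filter were above 0. For 5S the 30 °C libraries lay farther apart, at -1.79, than 7 d from 8 h, at 0.27. The 18S peaks summed to 198183, 292792, 415200 and 312850, a ratio of -0.41 that becomes 0.20 by total reads, and the 28S peaks had a ratio of -0.29 that becomes 0.33.

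Fragments of the spliceosomal RNAs U5 and U2 were more abundant at 7 d under each scaling tried. The U5 gene snu5 held 397 and 688 normalised reads at 30 °C, 808 at 8 h and 2892 at 7 d, a log2 ratio of 1.84 and of 2.45 by total reads. The U2 gene snu2 held 2580.4, 2623, 2092 and 6245, a ratio of 1.58 beside a gap of 0.02 between the 30 °C libraries. For both genes the 7 d library was above the other three. The same held for the U4 gene snu4, at 156, 333, 453 and 976, although its ratio of 1.10 stood beside a gap of 1.09 between the 30 °C libraries. The U1 gene snu1, at 1155, 1048, 5943 and 6566, differed little between the times, and the U6 gene snu6 was lowest at 7 d, at 6900.5, 6344, 3609 and 2759, although its ratio of -0.39 becomes 0.22 by total reads. The gene snR48, annotated as an snRNA, held 105, 79.0, 305 and 66.4, a ratio of -2.18. The median of 57 snoRNA peaks was 0.00, with 28 below 0 and 29 above. The peak past 4-fold among them was on snR33, at 17.6, 33.6, 33.1 and 142 normalised reads.

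Over the centromere repeats, where transcripts of the dg and dh elements feed Dicer, all 40 peaks were lower at 7 d than at 8 h. Their ratios ran from -2.80 to -0.84 with a median of -1.32, and 11 were 4-fold lower against 3.66% of all peaks. Under total reads all 40 stayed below 0, with a median of -0.71. Repeat copies share their reads, so the 40 peaks hold 27 distinct values, of which 6 were 4-fold lower. All 40 were also lower at 7 d than in either 30 °C library, under each of the 3 scalings. The 30 °C libraries themselves differed in the same class: replicate 2 was below replicate 1 at 40 of 40 peaks, with a median of -1.20, close in size to the ratio of 7 d over 8 h.

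The peaks did not differ equally. The 14 peaks wider than 2000 bp, the bodies of the repeats, had a median of -0.96 and none was 4-fold lower, and the 26 narrower ones, 15 of them distinct, had a median of -1.86. With each distinct value counted once, the medians were -0.93 over 12 wide peaks and -1.55 over 15 narrow ones. Of those 15, 6 were 4-fold lower. This width was chosen after the values were seen. The widest gap between the times was at the 183 bp peak I:3755836-3756018 on the RNAs SPNCRNA.3673 and SPNCRNA.3675, with normalised signal, the normalised reads per 71.0 bp of peak, of 963 and 279.9 at 30 °C, 395 at 8 h and 55.9 at 7 d. The left boundary element of centromere I, IRC1-L (I:3752846-3753828), stood at 1399.8, 399, 397 and 70.9, a 5.60-fold difference between the times. The right boundary copy, IRC1-R, had the same ratio of -2.47 and shares its reads. A body peak of the same centromere, I:3761774-3764218, stood at 4373, 1696, 2484 and 1367, which is 1.82-fold lower at 7 d. By the trimmed-mean scale, the boundary at 8 h was at the level of 30 °C replicate 2 while the body was above it. At 7 d both were below every other library. The place at 8 h depended on scaling: 21 of the 40 peaks were below both 30 °C libraries, and all 40 were by total reads. Across the 27 distinct peaks the ratio of 7 d over 8 h and the gap between the 30 °C libraries had a Pearson r of 0.67, as a description of peaks that share libraries and repeat sequence.

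At the chromosome ends, the helicase genes tlh1 and tlh2, which carry a stretch of sequence like the dh repeat, were lower at 7 d. Their peak I:3120-3685 on tlh1 stood at 479, 274, 262 and 113 normalised signal in the order 30 °C replicates 1 and 2, 8 h, 7 d, a log2 ratio of -1.21. The neighbouring tlh1 peak I:3687-4620 stood at 323, 142, 166 and 32.5, a ratio of -2.32, and tlh2 had ratios of -1.40 and -2.73 at its 2 peaks. Of the 33 subtelomeric peaks past the filter, 29 were below 0, with a median of -1.23, or -0.62 by total reads. Some of these peaks hold identical reads, so the 33 hold 27 distinct values. The 3 peaks at II:36930-37239, on no annotated gene, were among the 4 above 0, the highest at 0.99. The mating-type window, 2.11 to 2.14 Mb on chromosome II, had 15 peaks past the filter with a median of -0.58 that becomes 0.12 by total reads.

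**Figure D3:**
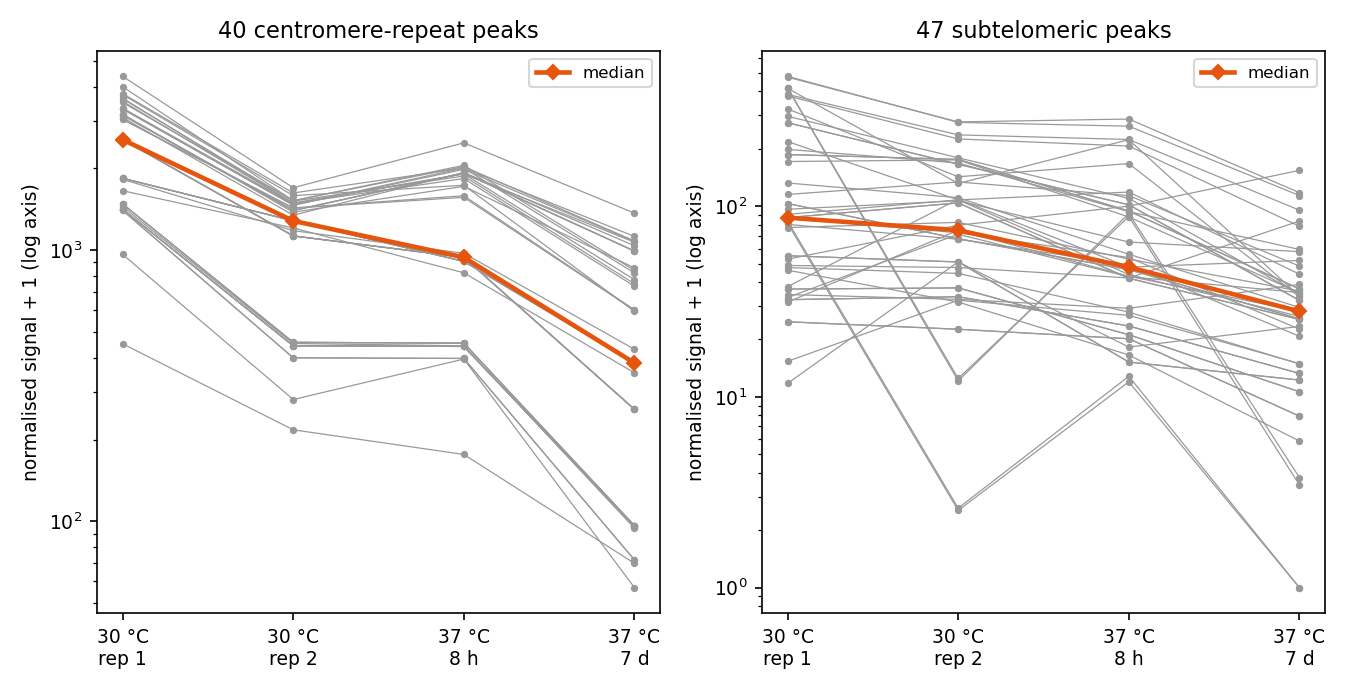
Normalised signal + 1 (log axis) of each of the 40 centromere-repeat peaks and 47 subtelomeric peaks in the 4 libraries of strain spb75, with a grey line per peak and the median in orange. Every centromere peak is lowest at 7 d, and the 30 °C replicates differ from each other at all 40.

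Among coding genes, 47 of 2747 were 4-fold lower at 7 d (1.71%) and 8 were higher (0.291%). The median was -0.10, 1538 genes (56.0%) were below 0, 295 were 2-fold lower and 94 were 2-fold higher. Of the 47 lower genes, 43 were above both 30 °C libraries at 8 h and 30 were below both at 7 d, with 11 between them and 6 above. Of all 2747 coding genes, 1292 were above both at 8 h and 952 (34.7%) below both at 7 d. The choice of genes favours a high 8 h value and a low 7 d value. Under total reads the counts become 27 and 37 of the 47, beside 141 and 1578 of all 2747 coding genes. The ratio of a gene can rest on 1 peak: of the 37 lower genes with more than 1 peak, 18 stayed 4-fold lower and 29 stayed 2-fold lower without the peak that holds most reads, and 1 turned above 0. Leaving out that peak was chosen after the values were seen. Of the 47, 16 are on a gene list given below. How many of all 2747 coding genes are on a list was not counted, so this count has no share to stand beside. Of the 5 chaperone lists, those of Hsp90, of Hsp70 and of the small heat shock proteins hold 4, 4 and 2 of them, and those of mitochondria and of the chaperonin CCT hold none.

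Reads over the genes for the aggregate-clearing and Hsp90 machinery were high at 8 h and low at 7 d. All 8 genes of that list past the filter were below 0, with a median of -2.18 beside -0.10 for all coding genes, and 4 were 4-fold lower. The disaggregase gene hsp104 (II:3612265-3615269, minus strand) held 199.9 and 511 normalised reads at 30 °C, 1239 at 8 h and 128 at 7 d. That is 9.66-fold lower at 7 d, with a 95% counting interval of 7.75 to 12.2, and all 7 of its peaks were below 0. By the trimmed-mean scale the 8 h library was the highest of the 4 and the 7 d library the lowest, below both at 30 °C. The 30 °C libraries lay 1.35 apart on the log2 scale. The place at 8 h depended on scaling. Of the 8 genes on the list, 7 were above both 30 °C libraries at 8 h, and 1 was by total reads. Of all 2747 coding genes 1292 were, and 141 by total reads. At 7 d 6 of the 8 were below both, and 7 were by total reads. Of all 2747 coding genes 952 were below both at 7 d, and 1578 by total reads.

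Its partners in protein refolding followed the same order. The gene wis2, for an Hsp90 co-chaperone of the cyclophilin family, held 576, 675, 1061 and 136. The gene sti1, whose product links Hsp70 to Hsp90, held 77.1, 141, 281 and 39.8. The gene wos2, for the p23 co-chaperone, held 834, 1032, 2278 and 435. By the trimmed-mean scale each of the 3 was highest at 8 h and lowest at 7 d, with log2 ratios of -2.96, -2.79 and -2.39. The chaperone gene hsp90 itself held 3117, 4392, 4406 and 1114, so its 8 h level was close to that of 30 °C replicate 2 and the difference lay in the 7 d library. The gene hsf1, for the transcription factor that drives the heat shock response, stood at 77.8, 73.1, 76.6 and 73.7, close together in all 4 libraries.

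Members of the Hsp70 list lay far apart. Of 12 genes, 4 were 4-fold lower and 4 were above 0; the median was -0.52 and becomes 0.08 by total reads. The nucleotide exchange factor gene fes1 held 185, 278, 1122 and 103 normalised reads, 10.9-fold lower at 7 d (95% counting interval 8.52 to 14.1), and the J-protein gene psi1 held 83.8, 203, 312 and 53.1, a ratio of -2.53 that is -1.89 without its largest peak. The cytosolic Hsp70 genes ssa1, at 202, 725, 1568 and 237, and ssa2, at 3272, 5753, 5050.4 and 1035, had log2 ratios of -2.72 and -2.29; the pair are similar in sequence and how the deposited counting split shared reads is not known. The ribosome-bound Hsp70 gene sks2 and its partners zuo1 and ssz1, which act on nascent chains, were above 0, at 0.37, 0.60 and 0.64, as was erj5, for another J protein, at 0.25. Thus sks2 stood at 13875, 13106, 8930 and 11511, lowest at 8 h. The endoplasmic reticulum Hsp70 gene bip1 lay between, at 629, 714, 1000.5 and 428, a ratio of -1.22. The gene pss1, of a cytosolic Hsp70-family protein, differed from ssa1 and ssa2: it held 2235, 1987, 1326 and 1276, a ratio of -0.06 that becomes 0.55 by total reads. The J-protein genes mas5 and scj1 and the co-chaperone gene bag101 had ratios of -0.71, -0.01 and -0.33.

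The small heat shock protein genes, whose products hold unfolded proteins in a soluble state, summed to 2822, 4402, 14154 and 3632 normalised reads over 5 genes, with the 8 h library far above the rest. The gene hsp16 (II:2660139-2660992) held 354, 1301, 3771 and 369 normalised reads, 10.2-fold lower at 7 d with an interval of 8.99 to 11.7, and its 7 d level lay between the 2 libraries at 30 °C, near replicate 1. The gene hsp9 held 2265, 2841, 10022 and 3068, a ratio of -1.71, and at 7 d lay just above both 30 °C libraries. The gene hsp20, at 17.0, 19.7, 69.8 and 14.7, also passed 4-fold, although its smaller peak alone had a ratio of -1.30. All 5 members past the filter were below 0 under each scaling, with a median of -1.71, or -1.10 by total reads. At 8 h 4 of the 5 were above both 30 °C libraries, and 3 were by total reads. All 5 were higher in replicate 2 than in replicate 1 at 30 °C, by a median of 0.33.

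**Figure D4:**
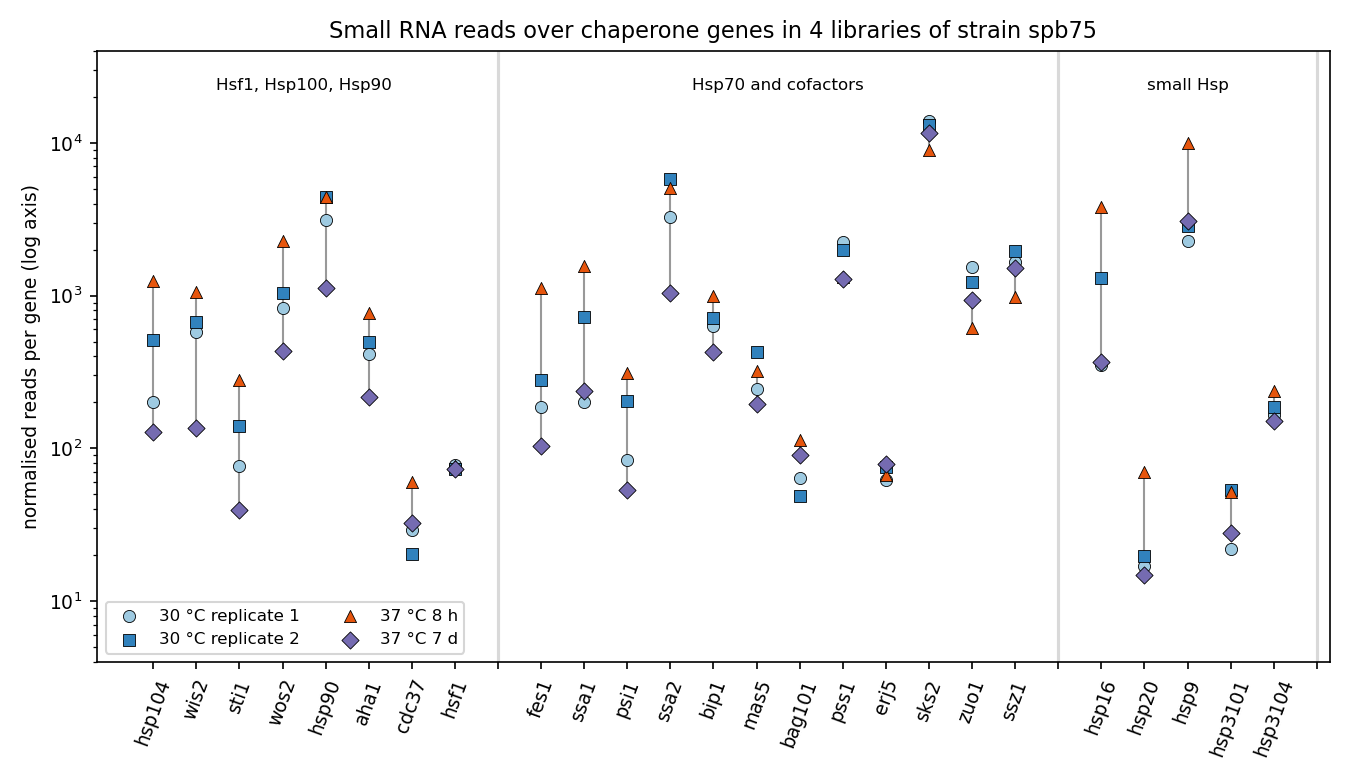
Normalised reads (log axis) over each chaperone gene in the 4 libraries of strain spb75, with a line from 8 h to 7 d. For hsp104, wis2, sti1, wos2, fes1 and psi1 the 8 h point is the highest and the 7 d point the lowest of the 4, while hsf1 stays at 73.1 to 77.8. This is by the trimmed-mean scale. By total reads 1 of the 8 genes of the Hsp90 list was above both 30 °C libraries at 8 h.

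The chaperones of mitochondria and the cytosolic chaperonin did not pass 4-fold at any gene. The mitochondrial list of 7 had a median of -0.59, or 0.02 by total reads, and its lowest member was the Hsp60 gene mcp60, at 2134, 1839, 1475 and 479, a ratio of -1.62. The member highest at 7 d over 8 h, ssp1 at 0.63, is annotated as a protein kinase and not as a chaperone. The chaperonin CCT, which folds actin and tubulin, had a median of 0.03 over 11 genes.

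Few general stress genes were 4-fold lower at 7 d. Of 18 genes of the Sty1 stress kinase pathway and osmotic stress, 15 were below 0, with a median of -0.52 (0.09 by total reads), and 1 was 4-fold lower. That gene was gld1, for glycerol dehydrogenase, at 1061, 1232, 2039 and 453. The stress gene rds1 held 1335, 2394, 6019 and 1971, and the glycerol-phosphate dehydrogenase gene gpd1 held 1662, 2428, 3611 and 1633. Both were highest at 8 h, with ratios of -1.61 and -1.14. Of 24 oxidative and metal stress genes, 15 were below 0, beside 56.0% of all coding genes, 1 was 4-fold lower and the median was -0.31 (0.29 by total reads). This was zym1, the metallothionein that binds zinc and cadmium, at 171, 225, 1462 and 351, and all 7 of its peaks were below 0; without its largest peak the ratio of -2.06 becomes -1.93. The glutathione peroxidase gene gpx1 had a ratio of -1.59. In the opposite direction, obr1 stood at 637, 1546, 727 and 1777 and had the highest ratio of the list, 1.29, while its 30 °C libraries also differed by more than 2-fold. The proteasome and ubiquitin list had a median of -0.57 over 35 genes (0.04 by total reads) with none past 4-fold, and the proteases and autophagy list -0.48 over 10 (0.13 by total reads).

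Enolase and pyruvate decarboxylase showed a split between paralogues. The gene eno102 held 49.2, 72.1, 991 and 171 normalised reads, 5.79-fold lower at 7 d. This rested on a 38 bp peak with 734 of its 809 reads at 8 h and 88 of 116 at 7 d; without it the ratio of -2.53 becomes -1.14. In contrast eno101, the main glycolytic enolase, held 18282, 26273, 16601 and 15164, a ratio of -0.13 that becomes 0.48 by total reads. The gene pdc201 held 80.2, 60.2, 281 and 52.4, a ratio of -2.40, whereas pdc101 held 17357, 20802, 12656 and 21960, a ratio of 0.80. In both pairs the paralogue with few reads at 30 °C was the one high at 8 h. How reads that match both paralogues were divided is not known. Of the 21 glycolysis and fermentation genes, those other than eno102 and pdc201 lay between -0.81 and 0.80, and the median was -0.11, or 0.50 by total reads. Invertase, the secreted enzyme that splits sucrose, also stood out: inv1 held 349.9, 621, 1492 and 240.4, with all 7 of its peaks below 0.

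The heterochromatin gene swi6, for the HP1 protein that binds methylated histone H3, was the list member past 4-fold, at 68.6, 43.4, 256 and 48.7 normalised reads. This rested on 1 of its 3 peaks, at -3.81, while the others were above 0, at 0.38 and 0.89. None of the 7 RNAi genes past the filter was past 2-fold. The Dicer gene dcr1 itself held 45.0, 57.3, 137 and 122 and the RNA-dependent RNA polymerase gene rdp1 50.4, 35.5, 71.1 and 66.4. By the trimmed-mean scale, the times at 37 °C lay closer to each other than to 30 °C for both genes. This place depended on scaling. Of the 7 RNAi genes, 5 were above both 30 °C libraries at 8 h, and 0 were by total reads. Of all 2747 coding genes 1292 were, and 141 by total reads.

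Genes of translation and of respiration lay on opposite sides of the coding median, each by little and nearly all members together. Of 83 genes for large ribosomal subunit proteins, 80 were above 0, with a median of 0.40, and of 55 for the small subunit 51 were, with a median of 0.36. Under total reads all 83 and all 55 were above 0, but so were 2113 of all 2747 coding genes, whose median becomes 0.51. None was 4-fold apart. At 8 h, 79 of the 83 and 48 of the 55 lay below both 30 °C libraries, against 878 of all 2747 coding genes. At 7 d 36 and 34 did, 43.4% and 61.8%, against 34.7%. The gene rpl8 held 8986, 11887, 7408 and 9649, and rps3 held 7624, 8810.2, 6952 and 9349, both lowest at 8 h. The largest ratio was that of rps2601, at 634, 801, 251 and 546, 1.12. All 7 genes for translation elongation factors were above 0, with a median of 0.51; tef3, for the fungal elongation factor 3, held 4275, 5436, 3070 and 5252. Among 27 ribosome biogenesis genes 19 were above 0, the highest being nip7 at 1.53, with 63.8, 79.0, 20.8 and 61.9.

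Of 44 nuclear genes for the respiratory chain and ATP synthase, 42 were below 0, with a median of -0.64, and 13 were 2-fold lower. Under total reads the median becomes -0.04 and 24 stay below 0, so the distance from the ribosomal genes is what holds across scalings. The ATP synthase gene atp2 held 3482, 4115, 1681 and 827 normalised reads, lower at 8 h than at 30 °C and lower again at 7 d. The Rieske iron-sulfur protein gene rip1 held 289, 273, 464 and 164, and cox17, for the copper chaperone of cytochrome oxidase, 16.4, 19.7, 49.6 and 14.7; both were highest at 8 h. At 7 d 32 of the 44 lay below both 30 °C libraries, 72.7% against 34.7% of all coding genes. The lists of ergosterol synthesis, nutrient transport, cell wall and housekeeping genes had medians of 0.04, -0.01, 0.18 and -0.05, and histone genes and meiotic genes -0.27 and -0.43; by total reads these become 0.65, 0.59, 0.88, 0.56, 0.34 and 0.23. The plasma membrane proton pump gene pma1 held 8867, 11513, 5284 and 10149.5, and the translation initiation helicase gene sum3 1511, 1573, 749 and 1576; both were lowest at 8 h and at 7 d were within the 30 °C range or just above it.

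**Figure D5:**
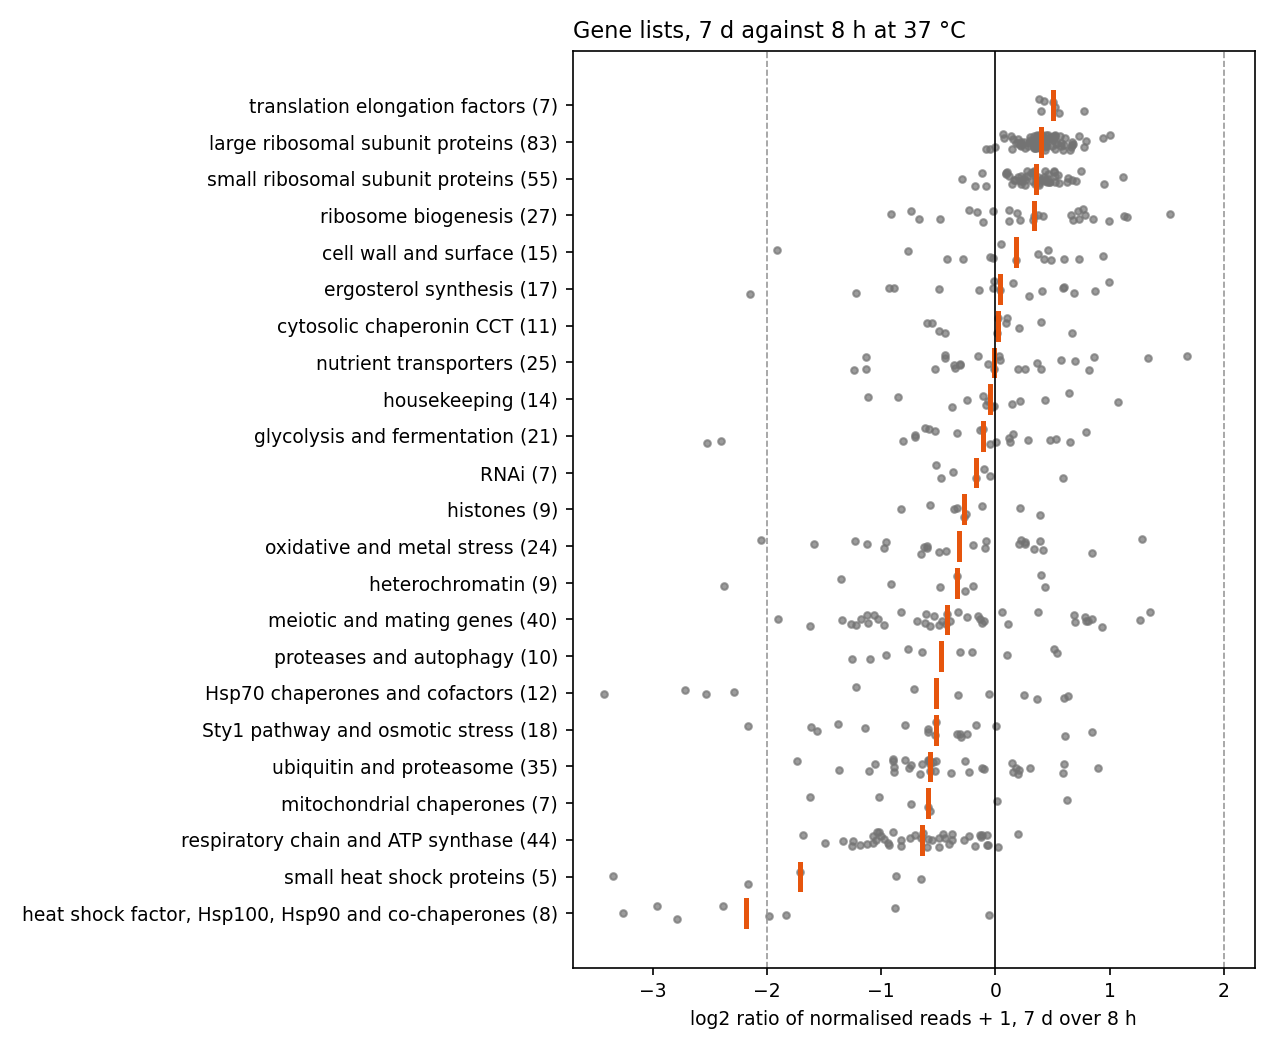
Log2 ratio of 7 d over 8 h for each gene past the low-level filter (grey points) in the fixed gene lists, with the number of genes in brackets and the list median in orange. Dashed lines mark 4-fold; the points past it on the lower side are mostly chaperone genes, and no list member is past it on the higher side.

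The genes higher at 7 d were few and had low counts at 8 h. Of the 8 coding genes, all were below both 30 °C libraries at 8 h and above both at 7 d, and none is on a list. The choice of genes favours this order, and under total reads all 8 stay below both at 8 h and 5 are above both at 7 d. Of all 2747 coding genes, 878 were below both at 8 h and 1054 above both at 7 d. By total reads these counts were 2166 and 253. The largest was asi1, with 71.7, 25.2, 14.7 and 110 normalised reads, from 12 reads at 8 h. The transmembrane transporter gene SPBC887.17 stood at 82.0, 86.9, 25.7 and 140.1. The gene swd2, for a subunit of the Set1 histone methyltransferase complex, stood at 67.4, 25.7, 13.5 and 75.2. The remaining ones were sof1 (U3 snoRNP), htd2 (mitochondrial fatty acid synthesis), elf1, and the pair SPAPB1A11.03 and mca1, which share their peaks, with ratios of 2.11 to 2.37.

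The biotin transporter gene vht1 and the lncRNA beside it on chromosome I were higher at 7 d. All 10 vht1 peaks were above 0, from 0.83 to 4.94, and the gene sum stood at 761, 1195, 178 and 574 normalised reads, a ratio of 1.68. The neighbouring lncRNA SPNCRNA.4230, which overlaps vht1 and SPAC1B3.15C on the opposite strand, stood at 129, 59.2, 11.0 and 152 and had the highest ratio of all genes, 3.67, from 9 reads at 8 h and 103 at 7 d. One peak of vht1 had 1 read at 8 h and 34 at 7 d, and the interval of its ratio, 6.87 to 1663, shows how little that count fixes. For the sums of vht1 and SPNCRNA.4230 the 8 h library was the lowest of the 4, and at 7 d vht1 was still below both 30 °C libraries. This did not hold over all of SPAC1B3.15C: its peak I:4955686-4955734 stood at 15.8, 27.2, 130 and 49.1 normalised signal, highest at 8 h, with a ratio of -1.39.

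Of the 108 genes 4-fold lower, 50 were lncRNAs, beside 1373 lncRNAs that were not 4-fold apart. For coding genes these counts were 47 and 2692. Of the 50 lncRNAs, 28 share every peak with a coding gene, and how many of all lncRNAs do so was not counted. With no strand in the list, SPNCRNA.6202 (957 normalised reads at 8 h, 85.5 at 7 d) cannot be told from hsp104, which it overlaps, nor SPNCRNA.7021 (435 and 31.0) from the RNA polymerase subunit gene rpb6. The peak shared with SPNCRNA.7021 held 355 of the 430.5 rpb6 reads at 8 h and 21 of 81 at 7 d. Without it the ratio of rpb6, -2.13, becomes -0.06. Another 18 overlap no coding gene, but these are not 18 separate loci. SPNCRNA.7233, SPNCRNA.7234, SPNCRNA.7235 and SPNCRNA.7236 had the same values, 81902 normalised reads at 8 h and 17730 at 7 d. These are the values of 1 peak on lysine and phenylalanine tRNA genes. IRC1-L, IRC1-R and SPNCRNA.5256 lie on centromere-repeat peaks, and SPNCRNA.862 and SPNCRNA.863 share their reads. The 5 higher lncRNAs included SPNCRNA.1370, which overlaps no coding gene, at 57.1, 27.6, 31.9 and 176. Of the 108 lower genes, 12 had 30 °C libraries 4-fold apart and 44 had them 2-fold apart. Of the 47 lower coding genes these were 1 and 10, and 35 of the 47 were higher in replicate 2 than in replicate 1.

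The largest ratios of single peaks rested on few reads on one side. Among the 10 lowest, a coding-sequence peak of fes1 held 9 and 23 reads at 30 °C, 218.5 at 8 h and 2 at 7 d, and the interval of its ratio ran from 24.8 to 753-fold. A peak on the untranslated region of sec18, a gene of vesicle fusion, held 20, 21, 40 and 1 reads (interval 5.63 to 1345), and one shared by wis2 and SPNCRNA.1036 held 34, 33, 32 and 0 reads. In normalised signal the last peak stood at 27.7, 43.6, 52.5 and 0, so the 8 h library was above both at 30 °C and the 7 d library alone was at 0. The others of the 10 lie on cbm1, hsp104, fes1 again, prl65, SPAC22H10.02 and the subtelomeres. Among the 10 highest, SPBC1271.10C held 120, 41, 6 and 76 reads (interval 6.69 to 42.8), SPNCRNA.5053 held 170, 25.5, 4 and 48, and the meiotic gene meu10 with SPNCRNA.1237 held 107, 23, 4 and 32. For these the 8 h library was the low one, below both at 30 °C. The remaining high peaks lie on SPAC2H10.01, SPBC409.08, SPNCRNA.2089, mca1, and the stretch of vht1 and SPNCRNA.4230.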

How the data were processed

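Small RNA libraries of strain spb75 at 37 °C (8 h, 7 d) and 30 °C were used as 1 deposited list of peaks. The submitters' processing notes name MACS (no version), Bowtie 0.9.9.1 and CASAVA 1.8, and no source used here gives the build. The deposited signal, as its values show, is reads over a peak per base, times the mean peak width of 71.0 bp. Reads matching several places appear in fractions: at least 94.6% of values in the 4 spb75 libraries were within 0.01 of a whole read or of a read shared by 2 or 3 places. Another 8 was added in the spb80 and dcr delta columns and was subtracted.

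Peaks were placed on RefSeq ASM294v3 by an overlap of at least 1 bp, after 212 of 243 tRNA, snoRNA and snRNA genes were found to hold a peak at the unshifted position and 38 to 60 at shifted ones. Each peak got 1 class, tRNA and rRNA first, and lncRNAs over coding genes were kept as a class of their own, which differs from the plan. Libraries were scaled by trimmed-mean factors over 6 libraries (30% of log ratios and 5% of levels trimmed), computed in Python 3.11.15 with numpy 2.4.6, pandas 2.3.3 and scipy 1.17.1 and checked on simulated data. The 25% of peaks or genes with the lowest mean of the 2 libraries were left out, and 1 was added before the log2. Counting intervals are exact binomial at 95%.

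Named are the 12 largest ratios in each direction per gene, the 10 per peak, and in each list and class the 3 members with most reads and those past 4-fold; the remaining names were chosen after their values were seen. The members and lists were chosen with earlier results of these data known.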

Additional observations from a re-analysis of the deposited data

How the results depend on the processing

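Counts of 4-fold differences depended on scaling, filter and pseudocount. Median-of-ratios factors, or trimmed-mean factors of the 2 libraries at 37 °C, kept every count within 1.5 times. Total reads turned 85 higher and 303 lower peaks into 350 and 96, 14 and 108 genes into 71 and 24, and 8 and 47 coding genes into 40 and 11. Without the filter 260 peaks, 58 genes and 24 coding genes were higher. With a pseudocount of 10, 22 peaks, 6 genes and 4 coding genes were higher and 188 peaks were lower. The median of all peaks, -0.04, became -0.0623 with median-of-ratios factors, -0.0729 with factors of the 2 libraries, 0.58 by total reads and 0.0042 without the filter. All 24 genes named by the ratio rule stayed past 4-fold under the 3 other scalings, and 17 did with a pseudocount of 10. The 137 peaks 4-fold apart at 30 °C became 304, 279 and 70 by total reads, without the filter and with a pseudocount of 10. Against a single 30 °C library, 591 peaks at 8 h and 323 at 7 d lay 4-fold from replicate 1, and 431 and 271 from replicate 2. With a 50% overlap tRNA shares were 65.3% at 8 h and 56.3% at 7 d. No paired analysis was possible because each group compared has 1 library, so the groups share no pair of replicate numbers. At 25 and 19 reads for the median peak, single low peaks are poorly fixed.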

Other observations

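Some loci that differ between 8 h and 7 d also differ between the 2 libraries at 30 °C. The gene cbm1, annotated as a cellulose-binding domain protein, held 561 reads in 30 °C replicate 1, 0 in replicate 2, 146.5 at 8 h and 9 at 7 d; the lncRNAs SPNCRNA.862 and SPNCRNA.863 beside it held 710, 2.14, 59.0 and 3.64. The subtelomeric peaks I:7004-7131 and II:4525417-4525548 held 1238 and 1268.5 reads in replicate 1, 21 and 21 in replicate 2, 128.5 and 137.5 at 8 h, and 3 and 3.5 at 7 d. At these loci replicate 1 and the 8 h library are the high pair and replicate 2 and the 7 d library the low pair.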
